A study of Mus musculus with 8 samples.

Results

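Pyruvate carboxylase, the 2 chains each of propionyl-CoA and methylcrotonyl-CoA carboxylase, and the enzymes that attach and recycle their biotin are encoded by 7 genes: Pcx, Pcca, Pccb, Mccc1, Mccc2, Hlcs and Btd. They were examined in inguinal white adipose tissue (iWAT), the subcutaneous fat of the groin. Expression was measured in 4 LPA4-KO mice, lysophosphatidic acid receptor 4-deficient males (Lpar4 -/Y), and 4 WT mice, their wild type male littermates. All were C57BL/6 animals aged 12 weeks on standard chow, with 1 array for each mouse; the labels do not say which part of Lpar4 was deleted. All 7 genes were found among the 18193 genes measured, with 15 of the 45101 probe sets on the array. Of several probe sets for a gene, the one that stands for it was chosen by its mean log2 signal over the 8 arrays, the highest being taken. The list was put together when the Pcx difference was already known, so its levels are given as a description and its count of changed members is no independent evidence.

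Biotin is attached to a lysine of each mitochondrial carboxylase and carries activated bicarbonate from one active site to the next. Pyruvate carboxylase (Pcx) turns pyruvate into oxaloacetate, which in white fat supplies citrate export for fatty acid synthesis and the making of glycerol phosphate. Propionyl-CoA carboxylase is built from an alpha chain that carries the biotin (Pcca) and a beta chain that transfers the carboxyl group (Pccb), and it leads propionyl-CoA from valine, isoleucine and odd-chain fatty acids towards succinyl-CoA. Methylcrotonyl-CoA carboxylase has the same division between Mccc1 (alpha, biotin) and Mccc2 (beta) and works in leucine breakdown. Holocarboxylase synthetase (Hlcs) attaches the biotin, and biotinidase (Btd) frees it again when the enzymes are degraded.

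The 3 mitochondrial chains that carry biotin, Pcx, Pcca and Mccc1, rose in LPA4-KO fat. Pcx was 1.83-fold, Mccc1 1.64-fold and Pcca 1.51-fold as high as in WT fat. The beta chains Pccb (1.21-fold) and Mccc2 (1.07-fold) and biotinidase (1.16-fold) did not pass the test, and Hlcs was near constant. These 3 of 7 members compare with 2.39% of all genes called higher and 1.64% called lower by limma (adjusted p under 0.05 over all genes); 0 of the 7 were called lower.

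The log2 signal of Pcx, whose product refills the mitochondrial pool of oxaloacetate, was 11.46, 11.29, 11.50 and 11.54 in LPA4-KO mice 1 to 4, against 10.68, 10.40, 10.69 and 10.53 in WT mice 1 to 4. The lowest LPA4-KO array stood well above the highest WT array. The means were 11.45 ± 0.11 in LPA4-KO and 10.58 ± 0.14 in WT (SD, n = 4 each). The difference of 0.87 (SE 0.09, 95% interval 0.67 to 1.08) took place 15 when all 18193 genes were ordered from the largest increase down (limma adjusted p = 0.0140).

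Pcca, the biotin-carrying chain of propionyl-CoA carboxylase, gave log2 signals of 9.98, 9.69, 9.89 and 9.98 in LPA4-KO mice, against 9.36, 9.24, 9.22 and 9.35 in WT mice. The genotypes did not overlap. Its difference was 0.59 (SE 0.07, 95% interval 0.41 to 0.77, limma adjusted p = 0.0229). Mccc1, the biotin-carrying chain of methylcrotonyl-CoA carboxylase, gave 10.84, 10.50, 10.65 and 10.79 in LPA4-KO mice, against 10.12, 9.74, 9.88 and 10.19 in WT mice. The genotypes were again apart, by a difference of 0.71 (SE 0.13, 95% interval 0.41 to 1.02, limma adjusted p = 0.0402). In the ordering of all genes by increase Mccc1 stood at place 35 and Pcca at place 69.

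The beta chains had smaller differences. Pccb gave 9.76, 9.52, 9.62 and 9.69 in LPA4-KO mice, against 9.45, 9.13, 9.37 and 9.55 in WT mice, so that WT 4 lay above LPA4-KO 2. Its difference was 0.27 (SE 0.10, 95% interval 0.03 to 0.51, limma adjusted p = 0.174). Mccc2 gave 10.25, 10.18, 10.50 and 10.29 in LPA4-KO mice, against 10.26, 10.02, 10.34 and 10.22 in WT mice. The genotypes overlapped broadly, with a difference of 0.10 (SE 0.09, 95% interval -0.13 to 0.32, limma adjusted p = 0.601). The interval leaves room for a small rise or a small fall of Mccc2.

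**Figure D1:**
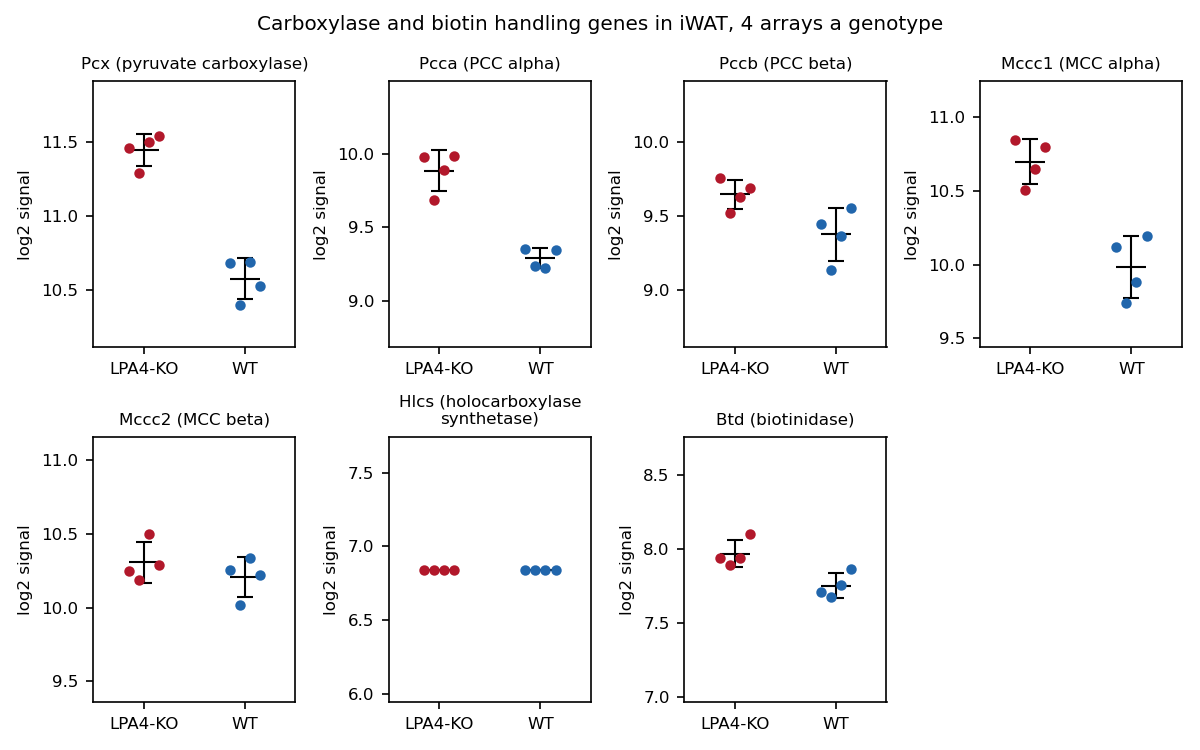
Log2 signal of the 7 genes in each array, LPA4-KO at left and WT at right in each panel, with a bar for the mean and SD of 4 mice; every vertical axis spans the same log2 range. Pcx, Pcca, Mccc1 and Btd show no overlap of the genotypes, Pccb and Mccc2 overlap, and Hlcs stays at 6.84 in all arrays.

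Of the genes that handle biotin itself, Btd gave 7.94, 7.90, 7.94 and 8.10 in LPA4-KO mice, against 7.71, 7.68, 7.76 and 7.87 in WT mice. The lowest LPA4-KO array was just above the highest WT array. Its difference was 0.22 (SE 0.06, 95% interval 0.07 to 0.36, limma adjusted p = 0.101). Hlcs was near constant, with an SD over the 8 arrays under 0.01: it read 6.84 in each array of both genotypes. Most of the deposited table behaves this way (78.7% of probe sets), bright genes such as Fabp4 (mean 13.49) and Lpl (mean 13.86) included. How this arose is not known here, so the Hlcs reading was not taken to show whether its RNA changed, by a small or a large amount. In all, 4 of the 7 members were higher in every LPA4-KO array than in any WT array, against 9.2% of all genes. Of the 18193 genes 13020 were near constant, and the share among varying genes was not counted.

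**Figure D2:**
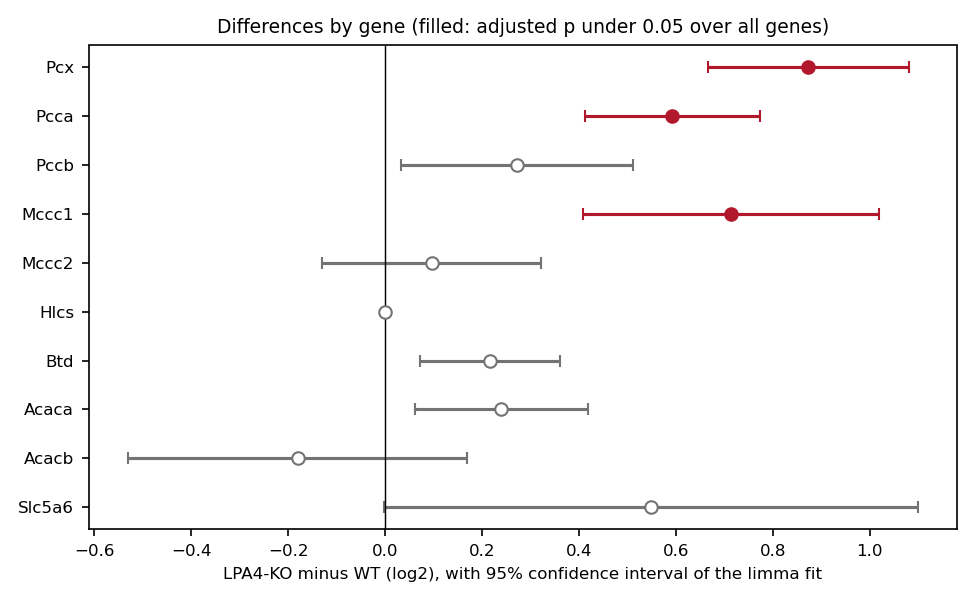
Difference of LPA4-KO minus WT on the log2 scale (horizontal axis) for the 7 genes and for Acaca, Acacb and Slc5a6, with the 95% confidence interval of the limma fit. Filled points passed at an adjusted p under 0.05 over all genes (Pcx at 0.87, Mccc1 at 0.71 and Pcca at 0.59), and open points did not.

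Over all genes the calls depended on whether the arrays were blocked by replicate number. The replicate numbers 1 to 4 of the labels met the rule for pairs, and with the number as a replicate block 0 genes passed over the whole table (0% called). The differences were the same with the block. Their SE fell from 0.09 to 0.05 for Pcx, from 0.07 to 0.05 for Pcca and from 0.13 to 0.04 for Mccc1. The limma adjusted p with the replicate block was 0.0697 for Pcx, 0.0751 for Pcca and 0.0685 for Mccc1. Among the 5173 genes that varied between arrays (SD of at least 0.01) it was 0.0148 for Pcx, 0.0201 for Pcca and 0.0148 for Mccc1 with the block, and 0.00292, 0.00488 and 0.00898 in that order without it. Btd passed in this smaller set of genes in either fit (0.0413 unblocked, 0.0351 with the replicate block). Pccb passed there with the replicate block (0.0396) but not without it (0.0656), and Mccc2 passed in neither (0.222 with the block). With 1 array left out, Pcx passed over all genes in 7 of 8 fits (not without LPA4-KO 3, adjusted p = 0.0537), Pcca in 1 of 8 (without LPA4-KO 2, 0.0233) and Mccc1 in 0 of 8 (0.0596 to 0.107), while all 3 passed in 8 of 8 among varying genes. In the same fits of varying genes Btd passed in 1 of 8 (adjusted p = 0.0356 to 0.0930) and Pccb in 1 of 8 (0.0463 to 0.152), in both cases without WT 4. The varying genes as a whole give 4 members higher without the block, against 14.9% of varying genes, and 5 with it, against 10.3%.

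Pcx is measured on this array by 5 probe sets, 4 of which are the manufacturer's control probe sets named for the 5' end, the middle (MA and MB) and the 3' end of the transcript. All 5 rose, and in all 5 every LPA4-KO array was above every WT array. At the 5' end the signal was 8.25, 8.19, 8.69 and 8.43 in LPA4-KO mice, against 7.51, 7.50, 7.48 and 7.55 in WT mice, a difference of 0.88 (limma adjusted p = 0.0274 over all probe sets). The differences were 0.58 at MA (0.0372), 0.82 at MB (0.0347), 0.80 at the 3' end (0.0173) and 0.87 for the brightest set, 1416383_a_at (0.0173), with the adjusted p in brackets. The difference between the 3' and the 5' probe set, which falls as a transcript's 5' end is better covered, was 2.74 ± 0.16 in LPA4-KO and 2.82 ± 0.12 in WT (SD, n = 4, two-sided exact permutation p = 0.543). The Pcx increase was thus measured at both ends of the transcript.

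**Figure D3:**
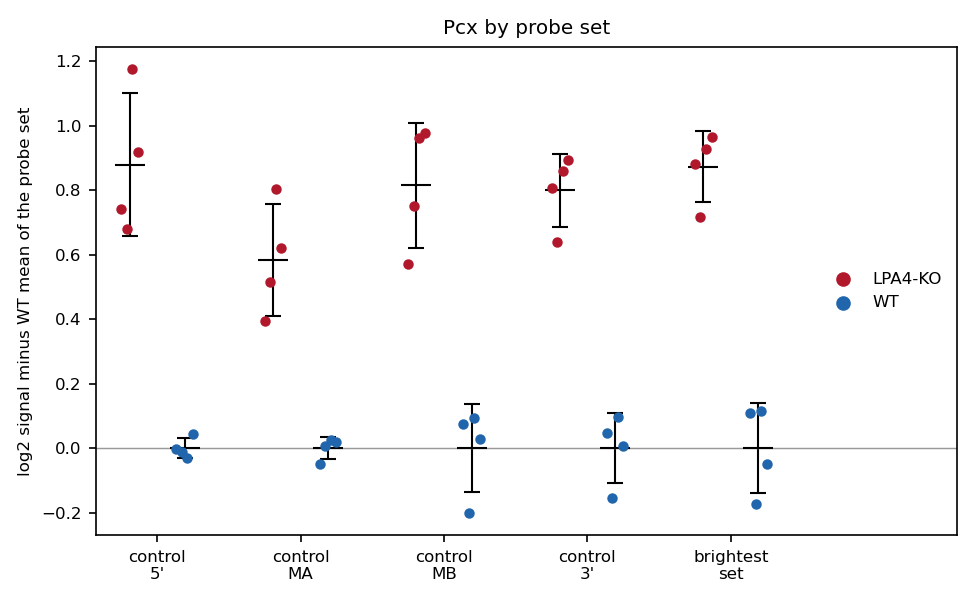
Log2 signal of Pcx in each array after the WT mean of the probe set was taken off, for the 4 control probe sets and for the brightest set, with LPA4-KO left of WT and bars for the mean and SD of 4 mice. The LPA4-KO means lie 0.58 to 0.88 above the WT means and no LPA4-KO array reaches the WT range.

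The other genes with several probe sets were less uniform. For Mccc1 the dimmer probe set 1458208_s_at, whose suffix marks probes shared between transcripts, gave 8.22, 7.97, 7.98 and 8.24 in LPA4-KO mice, against 7.80, 7.52, 7.74 and 7.99 in WT mice. WT 4 lay among the LPA4-KO arrays, and the difference of 0.34 did not pass (limma adjusted p = 0.180 over all probe sets). Over all probe sets 1417227_at, which stands for Mccc1, missed the threshold as well (0.0512). The 3 probe sets of Mccc2 differed by 0.10, 0.15 and 0.16, with limma adjusted p from 0.488 to 0.623 over all probe sets. The second probe set of Pcca, 1447577_x_at, was near constant at 6.25. Of the 15 probe sets 6 rose, against 1.02% of all probe sets, and 8 showed no overlap with LPA4-KO higher, against 6.9%. Of all probe sets 78.7% were near constant. The 5 sets of Pcx measure the same transcript and are not separate evidence.

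Whether the chains of an enzyme moved by equal amounts was asked within each array, by taking the beta chain's log2 signal from the alpha chain's. Only the shift of this value between genotypes can be read, since the probe sets of different genes have their own brightness. Pcca minus Pccb was 0.22, 0.17, 0.27 and 0.30 in LPA4-KO mice, against -0.09, 0.11, -0.14 and -0.20 in WT mice. The shift was 0.32, with no overlap. Mccc1 minus Mccc2 was 0.59, 0.32, 0.15 and 0.51 in LPA4-KO mice, against -0.13, -0.28, -0.45 and -0.03 in WT mice, a shift of 0.62 with no overlap. Both gave a two-sided exact permutation p of 0.0286, the smallest that 4 against 4 arrays allow, and 0.0286 after adjustment over the 2 enzymes. These shifts reuse the values by which the single chains were tested, and the test was chosen with earlier results of these data known. The p is therefore a description and no independent evidence. With arrays paired by number the exact paired permutation p was 0.125, the smallest that 4 pairs allow, and both values were higher in LPA4-KO in 4 of 4 pairs.

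The size of these shifts depended on the probe sets. With 1417227_at for Mccc1 the shift was 0.62, 0.56 and 0.56 against the 3 probe sets of Mccc2, without overlap in any. With the dimmer 1458208_s_at it was 0.24, 0.19 and 0.18, and the genotypes overlapped in all 3. When all probe sets of a gene were averaged, the shift was 0.39 for methylcrotonyl-CoA carboxylase (adjusted exact permutation p = 0.114) and 0.02 for propionyl-CoA carboxylase (0.714); the Pcca average includes the near-constant set of Pcca. Whether probe sets of different genes respond alike to the same change in RNA was not tested.

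**Figure D4:**
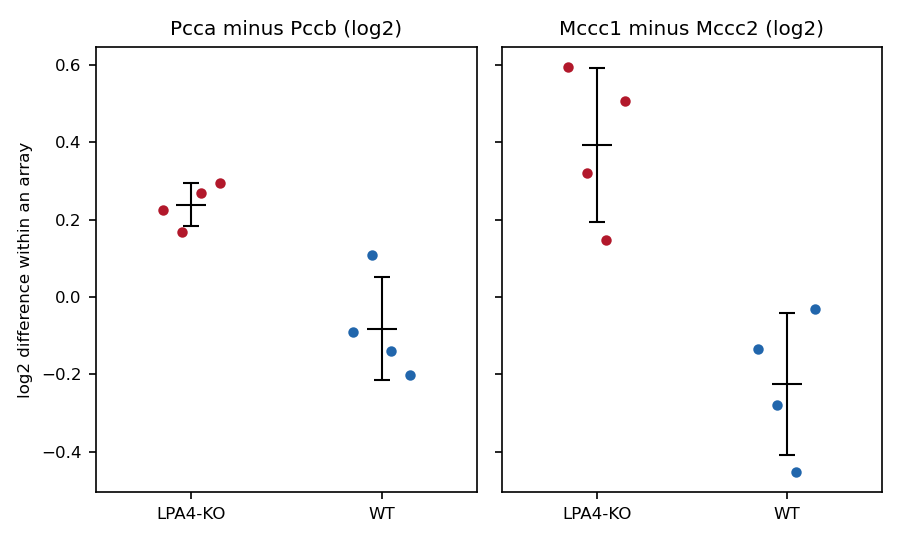
Log2 signal of the alpha chain minus that of the beta chain within each array (vertical axis), for Pcca minus Pccb at left and Mccc1 minus Mccc2 at right, LPA4-KO left of WT in each, with bars for the mean and SD of 4 mice. The genotypes do not overlap in either panel, with means of 0.24 in LPA4-KO against -0.08 in WT for Pcca minus Pccb and 0.39 in LPA4-KO against -0.23 in WT for Mccc1 minus Mccc2.

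The other enzymes that carry biotin did not share the calls. The acetyl-CoA carboxylases Acaca, which makes malonyl-CoA for fatty acid synthesis, and Acacb, whose malonyl-CoA restrains fatty acid entry into mitochondria, differed by 0.24 and -0.18 (limma adjusted p = 0.126 and 0.519). Acaca passed among varying genes without the replicate block (0.0477) but not with it (0.0725). Slc5a6, the sodium-dependent vitamin transporter that brings biotin into cells, read 8.55, 8.11, 8.45 and 7.59 in LPA4-KO mice, against 7.84, 7.64, 7.62 and 7.41 in WT mice. LPA4-KO 4 lay inside the WT range and the difference of 0.55 did not pass (limma adjusted p = 0.219). Among varying genes with the replicate block it did (0.0408).

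Around pyruvate and oxaloacetate, 4 of 16 measured genes rose, 0 fell and 12 did not pass, where 2.39% of all genes were called higher and 1.64% lower. The cytosolic malate dehydrogenase Mdh1 averaged 11.89 ± 0.06 in LPA4-KO and 11.49 ± 0.04 in WT (SD, n = 4); it was 0.40 higher (limma adjusted p = 0.0134). Malic enzyme Me1 (0.47, adjusted p = 0.0194), the mitochondrial malate dehydrogenase Mdh2 (0.22, 0.0161) and Dlat, the acetyltransferase of the pyruvate dehydrogenase complex (0.28, 0.0373), also rose. All 4 passed among varying genes with the replicate block (0.0218 for Mdh1 and Me1, 0.0357 for Mdh2 and 0.0319 for Dlat). The mitochondrial pyruvate carrier Mpc1 differed by 0.34 (0.131), the citrate carrier Slc25a1 by 0.35 (0.120) and Pdhb, a chain of pyruvate dehydrogenase, by 0.23 (0.0633), none passing over all genes. Each passed among varying genes, without the replicate block (0.0424, 0.0376 and 0.0258 in that order) and with it (0.0318, 0.0342 and 0.0385). Of the list's 15 varying genes, 7 were called higher without the block, against 14.9% of varying genes, and 7 with it, against 10.3%. Pdk4, the kinase that turns pyruvate dehydrogenase off, averaged 10.69 ± 0.52 in LPA4-KO and 11.44 ± 0.18 in WT; it was lower in all 4 pairs without passing (-0.75, adjusted p = 0.168). The median difference of the list was 0.18, against a median under 0.01 over all genes. Counting varying genes only, the medians were 0.22 for the list and 0.0145 for the whole table.

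Behind propionyl-CoA carboxylase, 1 of 9 measured genes rose and 0 fell, beside the 2.39% and 1.64% of all genes called higher and lower; a count of 1 is too small to read against these shares. That gene was Mmachc, which processes vitamin B12 on its way to the mutase, at 7.79 ± 0.03 in LPA4-KO and 7.47 ± 0.05 in WT (SD, n = 4); it was 0.32 higher (limma adjusted p = 0.0134). Methylmalonyl-CoA epimerase Mcee (0.20, adjusted p = 0.0629), methylmalonyl-CoA mutase Mmut (0.21, 0.107), the succinyl-CoA ligase chain Sucla2 (0.16, 0.0708) and Mmadhc, which directs vitamin B12 within the cell (0.05, 0.105), were each higher in every LPA4-KO array than in any WT array without passing. Such non-overlap was found in 7 of the 9 genes, against 9.2% of all genes. Most of all genes were near constant, and the share among varying genes was not counted. Among varying genes 5 passed without the replicate block, against a share of 14.9% called higher, and 1, Mmachc (0.0247), passed with it, against 10.3%. The list's median difference was 0.20.

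In leucine breakdown around methylcrotonyl-CoA carboxylase, 1 of 10 measured genes rose and 0 fell, again beside 2.39% and 1.64% of all genes, with a count as small. Oxct1, which activates ketone bodies for use in mitochondria, averaged 11.26 ± 0.13 in LPA4-KO and 10.75 ± 0.12 in WT (SD, n = 4); it was 0.51 higher (limma adjusted p = 0.0376). The enzymes next to methylcrotonyl-CoA carboxylase did not pass. Auh, the hydratase just after it, differed by 0.23 (adjusted p = 0.207), and the thiolase Acat1 by 0.13 (0.148). The branched-chain dehydrogenase chain Bckdhb (-0.17, 0.282) and its kinase Bckdk (-0.18, 0.146) had lower means in LPA4-KO. The list's median difference was 0.07.

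**Figure D5:**
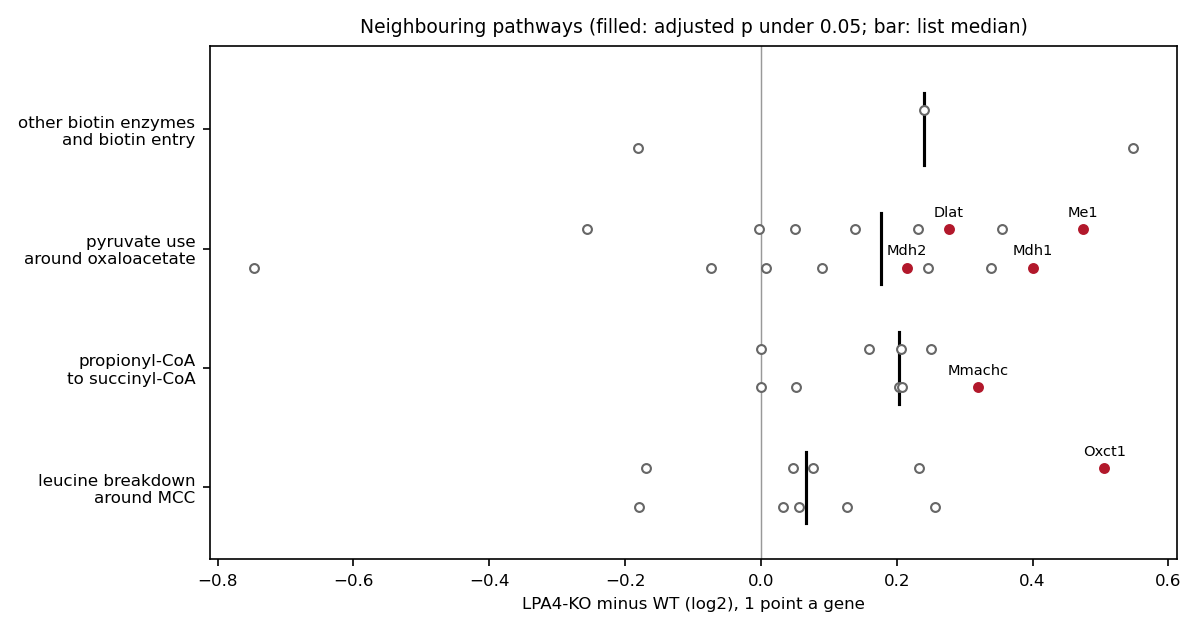
Difference of LPA4-KO minus WT on the log2 scale (horizontal axis) for each measured gene of 4 lists, 1 point a gene, with filled and named points for genes at an adjusted p under 0.05 and a vertical bar at each list's median. The 6 filled points all lie above 0, from 0.22 for Mdh2 to 0.51 for Oxct1.

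The genes whose profile over the 8 arrays lay nearest to each of the 3 risen members were found by the root mean square difference of log2 values after each gene's own mean was taken off. Nearest to Pcx were the predicted gene Gm10419 (0.126), Echdc1, a decarboxylase of ethylmalonyl-CoA (0.1504), and Mccc1 itself (0.158). Nearest to Pcca were Fkbp2, a peptidyl-prolyl isomerase (0.0666), D3Ertd751e (0.0687) and Echdc1 (0.0726). Nearest to Mccc1 were retinol saturase Retsat (0.0711), Rida, a deaminase of reactive enamines and imines (0.109), and Vnn3 of the vanin family (0.109). All of these were higher in LPA4-KO, by 0.51 to 0.98. This direction follows from choosing genes close to members that rose, and is no separate result.

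The promoter windows of the 3 risen genes and of the beta chains are shown because the alpha chains passed the test over all genes and the beta chains did not. Each runs 5' to 3' over the 250 bases before a RefSeq start in GRCm38.p6, and the array does not tell which start was used. Capitals mark the E-box CACGTG, the GC box GGGCGG, the CCAAT box and the NRF1 half-site pair, each searched on both strands. In Mccc2, CCAAT boxes on opposite strands overlap.
Pcx upstream start, chr19:4510222-4510471, plus strand: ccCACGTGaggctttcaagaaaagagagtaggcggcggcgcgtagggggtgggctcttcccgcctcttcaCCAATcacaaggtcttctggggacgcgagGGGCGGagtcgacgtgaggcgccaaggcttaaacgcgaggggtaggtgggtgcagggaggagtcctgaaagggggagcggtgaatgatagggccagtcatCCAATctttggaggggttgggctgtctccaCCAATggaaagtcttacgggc
Pcx downstream start, chr19:4594069-4594318, plus strand: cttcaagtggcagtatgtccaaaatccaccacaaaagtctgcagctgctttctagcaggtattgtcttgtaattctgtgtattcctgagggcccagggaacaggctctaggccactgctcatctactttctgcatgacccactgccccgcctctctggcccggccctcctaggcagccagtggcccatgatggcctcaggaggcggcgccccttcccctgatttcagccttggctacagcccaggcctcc
Pcca upstream start, chr14:122484115-122484364, plus strand: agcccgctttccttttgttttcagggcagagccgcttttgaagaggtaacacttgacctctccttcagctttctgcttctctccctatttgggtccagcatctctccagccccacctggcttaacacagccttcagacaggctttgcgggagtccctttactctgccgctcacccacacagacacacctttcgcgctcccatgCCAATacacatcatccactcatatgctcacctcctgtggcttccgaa
Pcca downstream start, chr14:122534078-122534327, plus strand: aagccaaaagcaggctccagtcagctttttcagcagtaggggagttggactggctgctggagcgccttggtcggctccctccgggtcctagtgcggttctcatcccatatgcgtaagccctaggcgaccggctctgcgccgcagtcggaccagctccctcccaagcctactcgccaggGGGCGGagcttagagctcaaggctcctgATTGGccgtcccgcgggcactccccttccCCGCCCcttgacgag
Mccc1, chr3:36000679-36000928, minus strand: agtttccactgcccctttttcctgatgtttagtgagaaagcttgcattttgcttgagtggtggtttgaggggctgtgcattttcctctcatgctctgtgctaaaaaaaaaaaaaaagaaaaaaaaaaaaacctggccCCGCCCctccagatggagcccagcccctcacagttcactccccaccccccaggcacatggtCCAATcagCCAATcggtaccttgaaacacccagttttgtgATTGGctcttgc
Pccb, chr9:101034885-101035134, minus strand: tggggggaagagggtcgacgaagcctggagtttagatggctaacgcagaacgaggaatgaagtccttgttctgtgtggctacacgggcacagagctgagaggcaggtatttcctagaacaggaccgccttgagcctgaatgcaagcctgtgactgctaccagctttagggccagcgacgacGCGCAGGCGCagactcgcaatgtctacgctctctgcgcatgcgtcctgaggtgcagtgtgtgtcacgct
Mccc2, chr13:100015640-100015889, minus strand: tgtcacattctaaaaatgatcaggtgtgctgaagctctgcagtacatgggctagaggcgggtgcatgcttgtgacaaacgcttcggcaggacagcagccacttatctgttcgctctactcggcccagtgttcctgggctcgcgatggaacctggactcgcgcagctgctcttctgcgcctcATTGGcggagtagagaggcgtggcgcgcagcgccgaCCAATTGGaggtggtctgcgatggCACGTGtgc

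The upstream Pcx window held 3 CCAAT boxes, 1 GC box and 1 E-box, and the downstream one held none of these motifs. Mccc1 had 3 CCAAT boxes and 1 GC box, and Mccc2 had 3 CCAAT boxes and 1 E-box. Whether any of these motifs acts on the genes was not tested. Pccb held the NRF1 pair alone. Among 32851 promoter windows of the same length, 33.8% held a CCAAT box, 32.7% a GC box, 6.02% an E-box and 3.74% the NRF1 pair. The ERR pattern TCAAGGTCA (0.387% of windows) and the PPAR direct repeat DR1 (0.0335%) were found in none of the 11 windows of the 7 genes.

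Array and tissue measures were set beside these results. Array medians lay between 6.73 and 6.74. Of the 3 probe sets of Lpar4, 1452424_at read 5.81 ± 0.07 in LPA4-KO and 6.93 ± 0.10 in WT (limma adjusted p = 0.0104 over all probe sets), while 1434186_at and 1439665_at were higher in LPA4-KO by 0.71 and 0.53 without passing (0.144 and 0.128). In these latter sets every LPA4-KO array was above every WT array. The labels do not tie any of the 3 probe sets to the deleted part. Signals of the 3 sets for 18S ribosomal RNA, another array control, were higher in every LPA4-KO array than in any WT array, by 0.22 to 0.44, and their 3' minus 5' value was -1.16 ± 0.09 in LPA4-KO and -1.38 ± 0.03 in WT. For Gapdh and beta-actin the 3' minus 5' values overlapped. The part of these measures in the carboxylase results was not tested.

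Of 8 adipocyte markers measured, 2 rose (Adipoq and Retn; 2.39% of all genes were called higher) and 0 fell, with Adipoq at 13.94 in LPA4-KO and 13.70 in WT. Without passing over all genes, Slc2a4 differed by 0.45, with every LPA4-KO array above every WT array. Pparg differed by -0.08, with every LPA4-KO array under every WT array, and Lep by -0.38, with lower values in all 4 pairs. Neither passed over all genes. Among varying genes Slc2a4 (limma adjusted p = 0.0181) and Retn (0.0175) passed without the replicate block, and also with it (0.0408 and 0.0337). Adipoq passed there only without the block (0.0192, against 0.0534 with it). Lep passed there only with the block (0.0331, against 0.0949 without it). Fabp4 and Lpl were near constant. The summed linear signal of the 8, near-constant genes included, was 65252 to 68081 in LPA4-KO and 61193 to 62653 in WT, a difference of 0.10 on the log2 scale. The sum of 6 blood endothelium markers was 3791 to 4440 in LPA4-KO and 4458 to 5321 in WT (-0.28), with 1 of the 6, Esam, lower past the test, and the Schwann cell marker Mbp differed by -1.56. In whole tissue fewer cells of a type and less RNA per cell cannot be told apart, and the part of tissue makeup in the results was not tested. All 4 measured B cell markers and all 3 epithelial markers were near constant between 6.20 and 6.80. Markers of macrophages (7 measured, 11571 to 13610 in LPA4-KO and 5862 to 14958 in WT), of fibroblasts and progenitors (6 measured, 16472 to 19895 in LPA4-KO and 16003 to 20574 in WT) and of brown and beige fat (5 measured, 996 to 1350 in LPA4-KO and 815 to 1055 in WT) overlapped between genotypes in their sums. In the last list Cox8b, a subunit of cytochrome oxidase, was higher in every LPA4-KO array than in any WT array (0.54, limma adjusted p = 0.147; among varying genes 0.0449, and 0.0301 with the replicate block), while Ucp1 was near constant. The sums of T cell markers (4 measured, 1 of them varying) and of erythrocyte markers (2 measured) also overlapped between genotypes.

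Skeletal muscle markers (10 measured) parted the arrays by replicate number, with a summed signal of 1425 to 12856 in LPA4-KO and 1553 to 10734 in WT. The differences of the members are also given within numbers 1 and 2 and within numbers 3 and 4. The LPA4-KO minus WT difference was 0.83 and 0.91 for Pcx, 0.54 and 0.65 for Pcca, 0.74 and 0.68 for Mccc1, 0.35 and 0.20 for Pccb, 0.08 and 0.11 for Mccc2, and 0.22 and 0.21 for Btd. No test was run within either set of arrays, and the part of muscle in the carboxylase results was not tested.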

How the data were processed

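The authors deposited a table of log2 signals from 3' expression arrays hybridised with biotin-labelled RNA amplified from 100 ng of total RNA, per the labels' protocols; the log2 scale was read from the values (4.93 to 14.3). The submitters' processing notes name R 2.14.0; how background and normalization were handled is not given in the sources used here. Genes were named by the platform annotation (34945 probe sets with a single gene). All genes were fitted with limma 3.58.1 in R 4.3.3 (lmFit, eBayes, two-sided), with Benjamini-Hochberg adjustment over 18193 genes and a threshold of 0.05; control probe sets entered only the fit of every probe set. Exact permutation tests were run in Python 3.11.15. The number of arrays limits the precision.

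Members, lists and tests were chosen with earlier results of these data known. Named genes were the members, Lpar4, list genes that passed with up to 4 others of smallest p per list, and the 3 nearest profiles of each member with an SD of at least 0.2. For the pairing check, correlations (across genes) of deviations from the genotype mean between same-numbered arrays were 0.315, 0.486, 0.189 and 0.244, each above 0.1. LPA4-KO 3 and 4 correlated more with WT 4 (0.364) and WT 3 (0.266), so the data part numbers 1 and 2 from 3 and 4 at least as clearly as single numbers. The pairing comes from the data, not the labels. Mpc2 and 6 marker genes were not analysed here. Alternatives covered the block, the genes tested, the probe set, normalization, the variance model and each array left out.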

Additional observations from a re-analysis of the deposited data

Results flagged for a closer look

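In 5 of 98 sets of 4 arrays, 1 array lay far from the rest; chance gives about 1 in 20. Among the members this was the near-constant probe set 1447577_x_at of Pcca, which read 6.2472 in LPA4-KO 1 against at most 6.2469 in the other LPA4-KO arrays. Dlat was low in WT 4 (9.02, others from 9.09 to 9.10). Mmut was high in LPA4-KO 1 (10.6, others from 10.4 to 10.5). Oxct1 was low in WT 3 (10.6, others 10.8). Auh was low in WT 2 (8.96, others from 9.16 to 9.19).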

How the results depend on the processing

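The count of changed genes depended strongly on the fit: 733 passed in the fit given above, 1402 among varying genes only, 9 when each gene was tested alone with unequal variances, and 0 with the replicate block, over genes or over every probe set (3703 genes had an unadjusted p under 0.05 in limma with the block). With an array dropped, 131, 253, 10 and 230 genes passed for LPA4-KO 1 to 4, and 212, 132, 193 and 220 for WT 1 to 4; the span among varying genes was 636 to 1149, with 1108 without LPA4-KO 2 and 1114 without WT 4. The varying-gene fits with the block or with an array left out, and the block over every probe set, were chosen after seeing the data.

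The differences of Pcx (0.87), Pcca (0.59) and Mccc1 (0.71) kept their sign in all fits run. Their calls over all genes were lost with the replicate block and in the gene-by-gene test (adjusted p = 0.0506, 0.0723 and 0.0862). Among varying genes all 3 passed with the block. Mccc1 also missed the threshold with the arrays blocked as numbers 1 and 2 and numbers 3 and 4 (0.0621), with its probe sets averaged (0.53, adjusted p = 0.0651) and with every probe set tested (0.0512). Averaging the probe sets gave 0.30 for Pcca, still called. With an array left out in turn Pcx ranged from 0.82 to 0.93 (limma adjusted p = 0.0280 to 0.0537, missed without LPA4-KO 3 only), Pcca from 0.56 to 0.66 (0.0233 to 0.0781, passing without LPA4-KO 2 only) and Mccc1 from 0.63 to 0.78 (0.0596 to 0.107, never passing). All 3 passed in each of these fits among varying genes, while Btd and Pccb each passed in 1 of 8, without WT 4.

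Btd (0.22) was called in both fits of varying genes (0.0413 unblocked, 0.0351 under the replicate block), and Pccb (0.27) in the blocked one (0.0396); with an array left out they ranged from 0.17 to 0.25 and 0.19 to 0.33, and Mccc2 from 0.03 to 0.14. Hlcs turned sign without LPA4-KO 1 (-8.96e-06) and without WT 3 (-3.07e-05), with a highest value of 9.64e-05. The shifts of Pcca minus Pccb (0.32) and Mccc1 minus Mccc2 (0.62) could not pass in the exact paired permutation test (replicate block, p = 0.125, the smallest possible). They were 0.0245 and 0.39 with probe sets averaged, and ranged from 0.28 to 0.38 and 0.54 to 0.70 with an array left out, passing the exact permutation test in 3 of 8 cases each.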
